A study of Mus musculus with 9 samples.

Results

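The transcripts described are those of glycogen metabolism in the proximal tubule: Stbd1, which encodes a glycogen-binding receptor of the endoplasmic reticulum, and 8 genes for the synthesis of glycogen, its breakdown and the targeting of protein phosphatase 1 to it. These 9 genes, among 24421 in the table, were chosen by symbol after their levels in the 3 groups of mice had been seen, so that their levels and fold changes are given as a description, without p-values. All 9 were found in the table, and all 9 passed the filter on low values. It asked for 0.3 counts for each 1000000 counts of the unscaled library total in at least 2 of the 9 mice. Ppp1r3b and Ppp1r3c passed it with at most 10 counts in a mouse. Levels are given in CPM, counts for each 1000000 counts of the TMM-scaled library total.

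RNA was sequenced from tdTomato-positive tubular cells isolated by cell sorting from 3 *db/m* mice, 3 *db/db* mice given vehicle and 3 treated *db/db* mice (*db/db*-dapa) given the SGLT2 inhibitor dapagliflozin at 1.5 mg/kg/day in drinking water for 8 weeks. All mice, controls included, carried CreERT2 in the Slc34a1 locus (SLC34a1GCE) and the R26tdTomato reporter on a C57BL/6 strain, and received 5 tamoxifen injections from the age of 8 weeks. *db/db* mice are homozygous for Leprdb, a mutation of the leptin receptor, and are obese and hyperglycemic, while *db/m* mice are heterozygous and served as non-diabetic controls. Dapagliflozin was given to no *db/m* mice, the sort depends on Slc34a1 having been active in a cell at the time of tamoxifen, and the labels name the tissue only as kidney. Each library was from 1 mouse.

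Glycogen is built from glucose 6-phosphate through glucose 1-phosphate and UDP-glucose, and is released by phosphorylase in the cytosol or by acid glucosidase in the lysosome. Stbd1 holds a starch-binding domain and binds both glycogen and proteins of the autophagy machinery, and it is regarded as a receptor for the delivery of glycogen to lysosomes (glycophagy). The healthy proximal tubule holds little glycogen, whereas deposits of glycogen in tubular cells are a classic finding of the diabetic kidney.

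The 2 members whose groups did not overlap in 2 of the 3 comparisons, Stbd1 and Gys1, are shown here by the 250 bases before their RefSeq start sites (GRCm38.p6), of the 8 members for which such a window was at hand. Capitals mark the GC box (GGGCGG, or CCGCCC on the other strand) and the CCAAT box (CCAAT, or ATTGG). Both windows are on the plus strand, chr5:92602801-92603050 for Stbd1 and chr7:45434589-45434838 for Gys1.
Stbd1: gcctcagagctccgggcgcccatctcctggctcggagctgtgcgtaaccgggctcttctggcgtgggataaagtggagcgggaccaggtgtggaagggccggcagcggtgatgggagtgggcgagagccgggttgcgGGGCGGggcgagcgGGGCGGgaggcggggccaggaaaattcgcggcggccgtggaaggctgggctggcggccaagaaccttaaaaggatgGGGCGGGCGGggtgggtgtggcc
Gys1: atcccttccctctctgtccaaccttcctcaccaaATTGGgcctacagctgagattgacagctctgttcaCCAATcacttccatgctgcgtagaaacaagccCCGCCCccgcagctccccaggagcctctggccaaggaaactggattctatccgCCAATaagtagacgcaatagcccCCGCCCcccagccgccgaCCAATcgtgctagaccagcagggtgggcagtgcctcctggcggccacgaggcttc
The Stbd1 window held 71.2% G and C and 4 GC boxes, of which the last 2 overlap, and no CCAAT box. The Gys1 window held 60% G and C, 4 CCAAT boxes and 2 GC boxes. Among all 32851 windows of this length, 32.7% held a GC box and 33.8% a CCAAT box on either strand. Neither window held the E-box palindrome CACGTG, found in 6.02% of all windows, nor the hypoxia response core ACGTG, found in 16.6%. A match to these letters is not a binding site, and the absence of a match says only that these letters do not occur in the window.

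Stbd1 was low in each untreated *db/db* mouse, and in the *db/db*-dapa mice it lay within the span of *db/m* mice. The gene lies on chromosome 5 of GRCm38 from 92603041 to 92606579 on the plus strand, and its longest coding transcript has 2 exons. Its level was 11, 19.5 and 17.5 CPM in *db/m* mice, 5.44, 3.0 and 5.56 CPM in *db/db* mice, and 18.2, 12.5 and 11.3 CPM in *db/db*-dapa mice. Thus the highest *db/db* mouse lay below the lowest mouse of the other groups, while *db/m* and *db/db*-dapa mice overlapped. Group means were 16.0 ± 4.45 CPM in *db/m*, 4.67 ± 1.44 in untreated and 14.0 ± 3.67 in treated *db/db* mice (each SD, n = 3). These levels rest on 70, 112 and 79 counts in *db/m*, 16, 15 and 44 counts in *db/db*, and 128, 95 and 100 counts in *db/db*-dapa mice. The exact Poisson 95% interval, which covers counting error only, was 4.04 to 7.46 CPM in *db/db* replicate 3, the highest of its group. It was 8.59 to 13.9 CPM in *db/m* replicate 1, the lowest of the *db/m* group. In *db/db* replicate 1, with 16 counts, the interval was 3.11 to 8.83 CPM and overlapped that of *db/m* replicate 1. In bulk RNA, fewer cells of a type and less RNA in each cell cannot be told apart.

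The log2 fold change of Stbd1 from the edgeR fit was -1.78 (standard error 0.34) in *db/db* relative to *db/m* mice, a level 0.292 times that of *db/m*. It was 1.58 (standard error 0.33), or 2.99-fold, in *db/db*-dapa relative to *db/db* mice and -0.20 (standard error 0.30) in *db/db*-dapa relative to *db/m* mice. The same *db/db* mice enter the first 2 of these comparisons. With 1 mouse left out at a time, the value for *db/db* relative to *db/m* lay between -1.99 and -1.54, and that for *db/db*-dapa relative to *db/db* between 1.34 and 1.79.

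**Figure D1:**
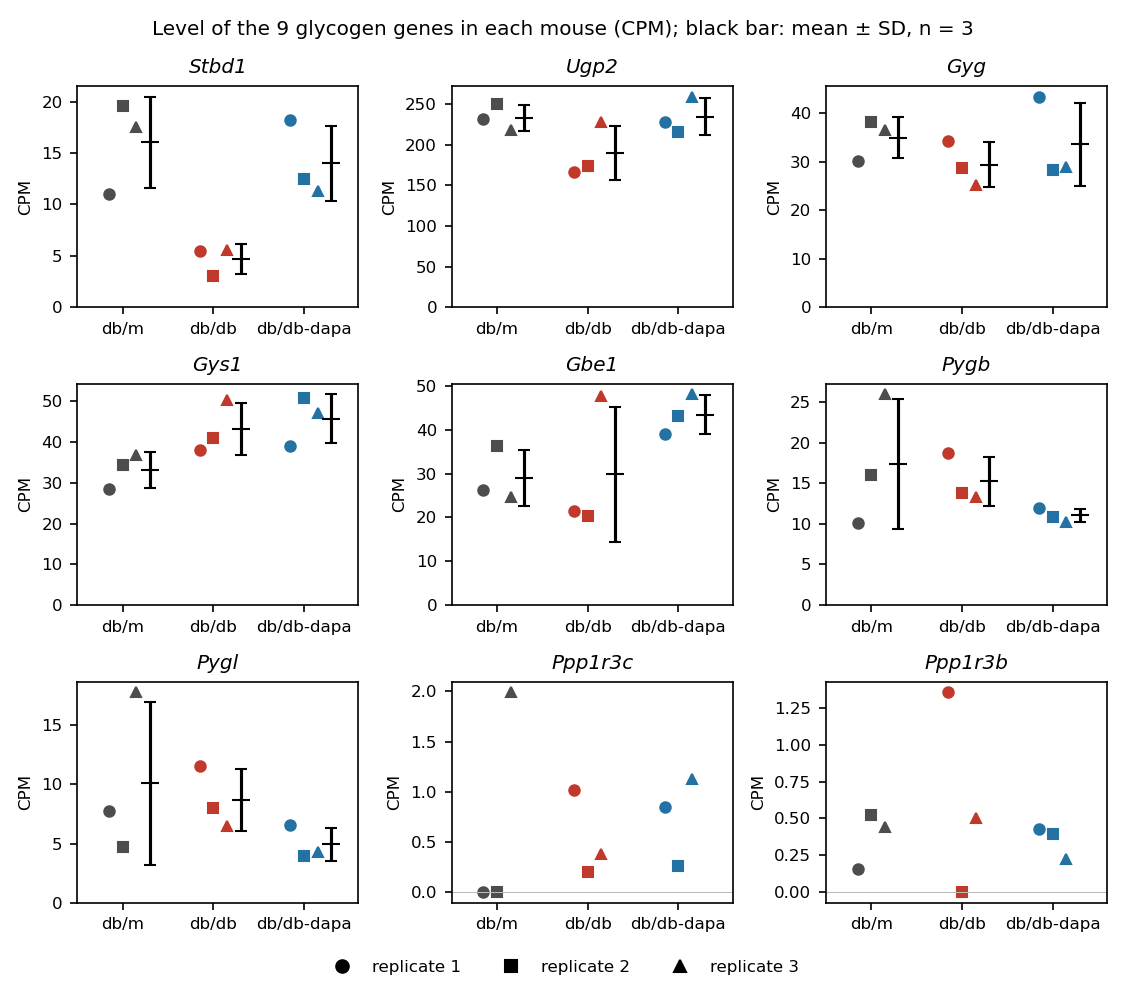
Level of each of the 9 genes in each mouse in CPM (linear axes), with a symbol for each replicate number and black bars for the group mean ± SD (n = 3 mice), which are left out for Ppp1r3c and Ppp1r3b because of their low counts. The 3 *db/db* mice lie at 3.0 to 5.56 CPM for Stbd1, under all other mice, whereas for Gys1 the 3 *db/m* mice are the lowest of the 9.

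To be called, a gene had to change by more than 1 on the log2 scale in either direction with a Benjamini-Hochberg adjusted p under 0.1. Of the 9 members, 1 was called between *db/db* and *db/m* mice (Stbd1, lower in *db/db*), where 1.24% of the 15583 tested genes were called. Between treated *db/db* and *db/m* mice 0 members were called, with 1.05% of all genes. Between treated and untreated *db/db* mice 0 members were called, with 0% of all genes. The edgeR quasi-likelihood test gave 0 calls for this last pair over the whole table, with 808 genes at an unadjusted p under 0.05, against 13 calls with DESeq2 and 445 with limma when mice were weighted. The groups did not overlap for 2 members between *db/db* and *db/m* mice (Gys1 above, Stbd1 below), against 16.4% of all genes. They did not overlap for 2 members between treated *db/db* and *db/m* mice (Gys1 and Gbe1 above), against 28.1%, and for 2 between treated and untreated *db/db* mice (Stbd1 above, Pygb below), against 10.2%. Since the members were chosen on these values, nothing is read from these counts. Stbd1 was not called between *db/db* and *db/m* mice without *db/m* replicate 2, *db/m* replicate 3 or *db/db* replicate 2. It was called between treated and untreated *db/db* mice without *db/db* replicate 3, with DESeq2 and with limma when mice were weighted. Without *db/db* replicate 3, 272 of 15519 tested genes were called for this pair.

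**Figure D2:**
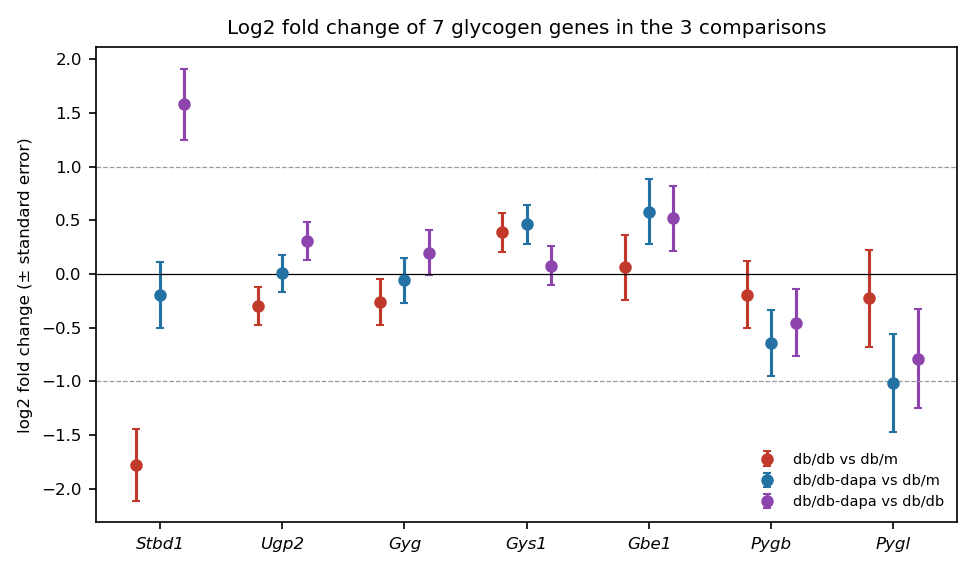
Log2 fold change of 7 members (points, ± standard error of the fit over 9 mice) in the 3 comparisons, with dashed lines at a log2 fold change of 1 in either direction. Stbd1 lies at -1.78 in *db/db* relative to *db/m* and at 1.58 in *db/db*-dapa relative to *db/db* mice, and the other genes lie nearer to 0, the farthest being Pygl at -1.02.

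Cell type markers were read beside these levels. The 10 proximal tubule markers summed to between 17312 and 23613 CPM in the 9 mice, and none of them was absent. Slc34a1, whose locus drives the reporter, lay between 3530.3 and 6195 CPM. The single markers of this list did not move together. *db/db* replicate 1 had the most Slc34a1, Slc5a2 (2124 CPM) and Slc5a12 (1070 CPM) of the 9 mice. The same mouse had the least Slc22a6 (384 CPM), Slc27a2 (1436 CPM), Aqp1 (306 CPM) and Ggt1 (535 CPM). A list of 4 markers of the S3 segment, the last part of the proximal tubule, was lower in sum in both *db/db* groups. It summed to 587, 449.6 and 386 CPM in *db/m* mice, 41.1, 87.6 and 275 CPM in *db/db* mice, and 221, 169 and 277 CPM in *db/db*-dapa mice. All 4 of these markers were detected, but they did not move together. Slc7a13 held most of the sum in *db/m* mice, at 484, 375 and 310.4 CPM, and was at 9.52, 7.40 and 100.2 CPM in *db/db* and 84.7, 35.1 and 125 CPM in *db/db*-dapa mice. Slc5a1 was at 77.6, 67.5 and 69.3 CPM in *db/m*, 28.9, 77.4 and 170.5 CPM in *db/db*, and 133, 131 and 147 CPM in *db/db*-dapa mice, so that each treated mouse was above each *db/m* mouse. The part of S3 cells in the level of Stbd1 was not tested.

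A pair of mice stood apart in other marker lists. *db/db* replicate 2, the mouse with the least Stbd1, had 1462 CPM of the 5 erythroid markers, against 29.6 to 421 CPM in the other mice, and the highest sum of the 7 immediate-early genes, 5686 CPM. *db/db*-dapa replicate 1, the treated mouse with the most Stbd1, had 220.4 CPM of the 4 podocyte markers, against 16.5 to 72.7 CPM in the other mice. Without the former, the log2 fold change of Stbd1 was -1.54 in *db/db* relative to *db/m* mice, and 1.34 in treated relative to untreated *db/db* mice. Without the latter, the treated mice differed from the untreated by 1.36 on the same scale. The part of these other cells in the level of Stbd1 was not tested.

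Genes that build the polymer came next in order of the pathway. Ugp2 makes UDP-glucose, the sugar donor of glycogen synthase and of glucuronic acid synthesis, and was the most abundant member. It lies on chromosome 11 from 21321138 to 21371201 on the minus strand. Its level was 232, 250.2 and 218 CPM in *db/m*, 167, 174 and 228 CPM in *db/db*, and 229, 216 and 259 CPM in *db/db*-dapa mice. *db/db* replicates 1 and 2 were the lowest of all mice, whereas replicate 3 lay among the other groups. Its change on the log2 scale was -0.30 (standard error 0.17) in *db/db* relative to *db/m*, 0.31 (standard error 0.17) in *db/db*-dapa relative to *db/db*, and 0.01 (standard error 0.17) in *db/db*-dapa relative to *db/m* mice. The last value was within its standard error.

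Gyg encodes glycogenin, the self-glucosylating primer on which a glycogen particle starts, and lies on chromosome 3 from 20122084 to 20155317. It was at 30.1, 38.2 and 36.6 CPM in *db/m*, 34.3, 28.6 and 25.3 CPM in *db/db*, and 43.4, 28.4 and 29.0 CPM in *db/db*-dapa mice. The 3 groups overlapped. Its largest log2 fold change was -0.26 (standard error 0.21), in *db/db* relative to *db/m* mice, and the value in *db/db*-dapa relative to *db/db* mice, 0.20 (standard error 0.21), was -0.02 without *db/db*-dapa replicate 1.

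Gys1, the glycogen synthase of muscle and most other tissues, was higher in each of the 6 *db/db* and *db/db*-dapa mice than in any *db/m* mouse. It was found at 28.3, 34.4 and 36.9 CPM in *db/m*, 38.1, 41.0 and 50.4 CPM in *db/db*, and 39.0, 50.8 and 47.2 CPM in *db/db*-dapa mice. The gap between the highest *db/m* and the lowest *db/db* mouse was small, and treated and untreated *db/db* mice overlapped. On the log2 scale, the difference from *db/m* mice was 0.39 (standard error 0.18) in untreated and 0.46 (standard error 0.18) in treated *db/db* mice, and between the treated and untreated *db/db* mice it was 0.08 (standard error 0.18). Gys1 lies on chromosome 7 from 45434844 to 45456619 on the plus strand, and exons of it overlap exons of Ruvbl2 on the other strand. The sources do not state whether counting used strand. Ruvbl2 lay between 17.9 and 25.8 CPM in the 9 mice, with both of these values in *db/db* mice.

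Its liver counterpart Gys2, a gene outside the members, went the other way in part. Gys2 was at 33.7, 28.1 and 26.6 CPM in *db/m*, 20.4, 20.8 and 34.4 CPM in *db/db*, and 22.4, 20.2 and 22.6 CPM in *db/db*-dapa mice. The 3 *db/db*-dapa mice lay below the *db/m* mice, at a log2 fold change of -0.44 (standard error 0.22), which did not pass the edgeR test after Benjamini-Hochberg adjustment over all genes (adjusted p = 0.307). Per kilobase of the longest coding transcript, the ratio of Gys1 to Gys2 was 0.608, 0.884 and 0.999 in *db/m*, 1.35, 1.42 and 1.06 in *db/db*, and 1.26, 1.82 and 1.51 in *db/db*-dapa mice. Thus Gys2 was at or above Gys1 in each *db/m* mouse and below it in each of the other mice.

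Gbe1, the branching enzyme that adds side chains to the polymer, lies on chromosome 16 from 70313949 to 70569716. It was at 26.1, 36.3 and 24.6 CPM in *db/m*, 21.4, 20.4 and 47.6 CPM in *db/db*, and 39.0, 43.2 and 48.1 CPM in *db/db*-dapa mice. The *db/db*-dapa mice were all above the *db/m* mice, and the log2 fold change between these groups was 0.58 (standard error 0.30). One *db/db* mouse, replicate 3, was as high as the treated mice, and the other two were the lowest of the 9. The log2 fold change between *db/db* and *db/m* mice was 0.06 (standard error 0.31) and turned to -0.49 without that mouse. Between treated and untreated *db/db* mice it was 0.52 (standard error 0.30), and 1.07 without that mouse. In the fit without that mouse, Gbe1 was among 272 genes called for this pair, of 15519 tested.

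**Figure D3:**
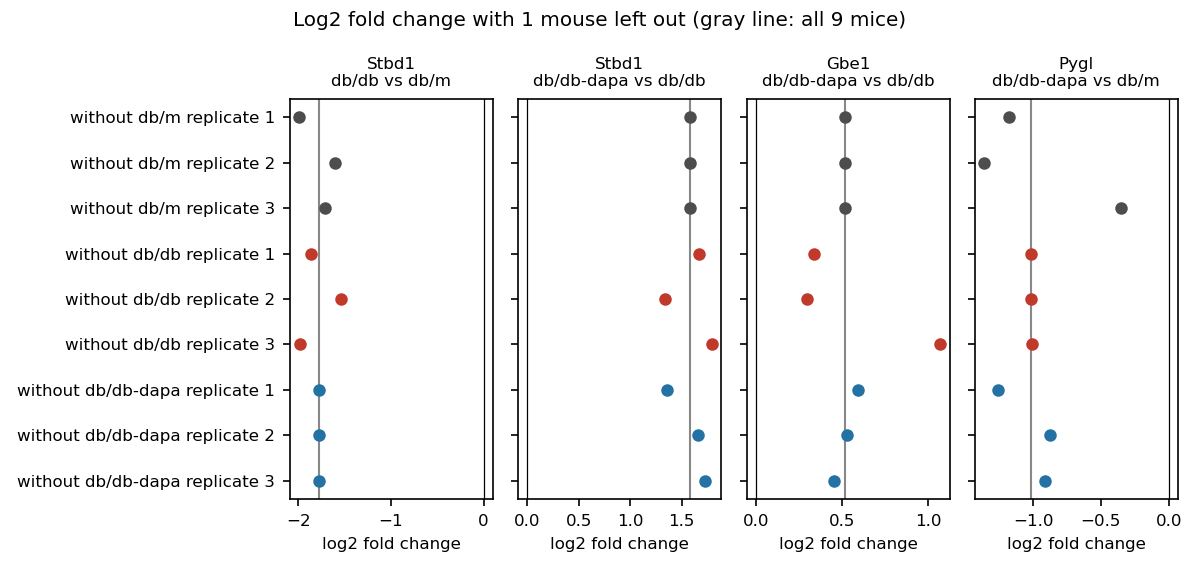
Log2 fold change when 1 of the 9 mice is left out (points, 1 row for each mouse left out, colored by its group), beside the value with all 9 mice (gray line) and 0 (black line). Stbd1 keeps its direction in all 18 values shown. Points that leave out a mouse of the group not compared can hardly move. Gbe1 moves to 1.07 without *db/db* replicate 3, and Pygl moves to -0.35 without *db/m* replicate 3.

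Of the phosphorylases, which cleave glucose 1-phosphate from the ends of glycogen, Pygl is the liver form and Pygb the brain form. Pygl lies on chromosome 12 from 70190811 to 70231488. Its levels were 7.72, 4.71 and 17.8 CPM in *db/m*, 11.6, 8.0 and 6.44 CPM in *db/db*, and 6.53, 3.94 and 4.30 CPM in *db/db*-dapa mice. *db/m* replicate 3 was the highest mouse, and each pair of groups overlapped. Its log2 fold change was -0.23 (standard error 0.45) in untreated and -1.02 (standard error 0.45) in treated *db/db* mice relative to *db/m* mice, and these were 0.44 and -0.35 without *db/m* replicate 3. In *db/db*-dapa relative to *db/db* mice it was -0.79 (standard error 0.46).

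Pygb lies on chromosome 2 from 150786735 to 150831758, and its levels were 10.1, 16.1 and 26.0 CPM in *db/m*, 18.7, 13.8 and 13.3 CPM in *db/db*, and 11.9, 10.9 and 10.3 CPM in *db/db*-dapa mice. The *db/db*-dapa mice lay close together and below the *db/db* mice, but *db/m* mice spanned both groups. Here too *db/m* replicate 3 was the highest of the 9. On the log2 scale the fold change was -0.45 (standard error 0.31) in *db/db*-dapa relative to *db/db* mice and -0.64 (standard error 0.31) relative to *db/m* mice, the latter being -0.25 without *db/m* replicate 3. In *db/db* relative to *db/m* mice it was -0.19 (standard error 0.31), and 0.20 without *db/m* replicate 3.

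The sums of markers of later nephron segments were also highest in *db/m* replicate 3. The 8 markers of the distal tubule and collecting duct, all detected, summed to 767, 504 and 1633 CPM in *db/m*, 1127, 761 and 598 CPM in *db/db*, and 647, 503 and 513 CPM in *db/db*-dapa mice. The 4 markers of the thick ascending limb were all detected as well. Their sums ranged from 801 to 1634 CPM in *db/m*, from 344 to 1073 CPM in *db/db* and from 428 to 534 CPM in *db/db*-dapa mice. The highest sum was again that of *db/m* replicate 3, in which Umod held 1315 CPM. Single markers differed: Slc12a1 (313 CPM), Cldn16 (8.50 CPM) and, in the distal list, Calb1 (255 CPM) were highest in *db/db* replicate 1. Pygb did not follow these sums throughout. *db/m* replicate 1 had the least Pygb of the 9 mice and the third highest sum in both lists. For Pygl, the order of the mice was nearly that of the distal sum. In both, *db/m* replicate 3 and *db/db* replicate 1 were highest and *db/db*-dapa replicate 2 was lowest. Pygl followed the thick ascending limb sum less closely: *db/db* replicate 2 had the lowest sum and the third highest Pygl. The part of these segments in the levels of Pygl and Pygb was not tested. Pygm, the muscle form, lay between 1.58 and 4.42 CPM in the 9 mice. The 4 markers of skeletal muscle summed to at most 0.444 CPM, and 1 of them, Myh4, was at 0 in all mice.

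The last pair of members encode subunits that bring protein phosphatase 1 to glycogen, where it activates the synthase and inactivates phosphorylase. Ppp1r3b, on chromosome 8 from 35375739 to 35388139, had 1, 3 and 2 counts in *db/m*, 4, 0 and 4 counts in *db/db*, and 3, 3 and 2 counts in *db/db*-dapa mice. Ppp1r3c, on chromosome 19 from 36731731 to 36736653, had 0, 0 and 9 counts in *db/m*, 3, 1 and 3 counts in *db/db*, and 6, 2 and 10 counts in *db/db*-dapa mice. Most of these values are at or near 3 counts, worth 1.02 CPM in the shallowest library (*db/db* replicate 1) and 0.339 CPM in the deepest (*db/db*-dapa replicate 3). No difference between groups was detectable for either gene at this depth, and no fold change is given.

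Relative to transcript length, the members spanned a wide range. The mean over the 9 mice was 81.7 CPM per kilobase of the longest coding transcript for Ugp2, 17.0 for Gyg, 11.1 for Gys1, 10.3 for Gbe1, 5.82 for Stbd1, 3.72 for Pygb and 2.64 for Pygl. Ppp1r3c and Ppp1r3b were at 0.238 and 0.102 CPM per kilobase. Neighbours in this order mostly overlapped among mice: Gys1 ranged from 7.71 to 13.8 and Gbe1 from 6.18 to 14.6 CPM per kilobase, and Pygb from 2.58 to 6.65 and Pygl from 1.32 to 5.94. Ugp2, with its lowest mouse at 62.1 CPM per kilobase, did not overlap Gyg, with its highest at 22.6. By group means, the place of Stbd1 in this order differed among the groups. In untreated *db/db* mice Stbd1 was at 2.35 ± 0.727 CPM per kilobase, below Pygb at 3.90 ± 0.765 and Pygl at 2.90 ± 0.876 (each SD, n = 3). The difference from Pygl was smaller than the SD of either gene.

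Other genes around glycogen were taken from 7 lists with 51 genes that are no members, of which 49 were in the table and 46 passed the filter. In each of the 3 comparisons 0 of the 46 were called by the edgeR quasi-likelihood test, against 1.24%, 1.05% and 0% of all genes. At an unadjusted p under 0.05 there were 4 of them between *db/db* and *db/m* mice, 7 between treated *db/db* and *db/m* mice, and 2 between treated and untreated *db/db* mice, or 8.70%, 15.2% and 4.35%. Of all tested genes, 13.7%, 18.2% and 5.19% were at such a p. DESeq2 called 0, 1 and 0 of the 46. The median log2 fold change of the 46 was -0.06, -0.08 and 0.07 in the same order of comparisons, against 0.02, -0.02 and -0.01 over all genes tested.

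Among these, G6pc and Prkag2 had the lowest adjusted p-values. G6pc encodes glucose 6-phosphatase, by which the proximal tubule releases free glucose. Its level was 365, 271 and 371 CPM in *db/m*, 547, 435 and 825 CPM in *db/db*, and 502, 697 and 861 CPM in *db/db*-dapa mice, so that all *db/m* mice lay below the other mice. The log2 fold change of G6pc relative to *db/m* mice was 0.84 (standard error 0.27, adjusted p = 0.205 from edgeR) in untreated and 1.03 (standard error 0.27, adjusted p = 0.122 from edgeR) in treated *db/db* mice. The latter was past the threshold of a call with no filter on low values, with DESeq2, with limma when mice were weighted, in a fit of only these 2 groups, and when either replicate 3 of the untreated or replicate 1 of the treated *db/db* mice was left out. Over the 12 other settings, its adjusted p ranged from 0.00192 to 0.139, and with 1 mouse left out from 0.0283 to 0.445. Prkag2, a regulatory subunit of AMPK that binds adenine nucleotides, was at 45.4, 51.3 and 40.9 CPM in *db/m*, 56.8, 51.2 and 65.4 CPM in *db/db*, and 64.7, 79.0 and 85.2 CPM in *db/db*-dapa mice. The *db/db*-dapa mice lay above all *db/m* mice, at a log2 fold change of 0.73 (standard error 0.18, adjusted p = 0.106 from edgeR), which did not pass the test.

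**Figure D4:**
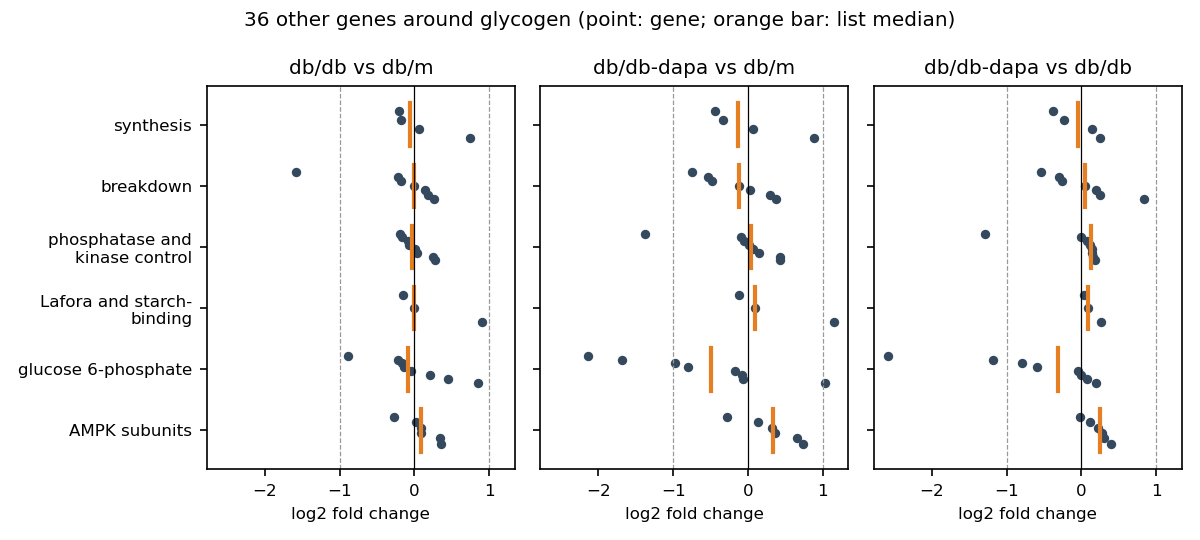
Log2 fold change of 36 of the 46 other genes around glycogen in the 3 comparisons, by list (points, 1 for each gene; orange bars, list medians; dashed lines, a log2 fold change of 1 in either direction). No gene shown was called, and the point farthest from 0 is Hk3 at -2.59 in *db/db*-dapa relative to *db/db* mice, a gene with at most 1.40 CPM.

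Among the other genes of breakdown, Gaa lay above the values of *db/m* mice in each *db/db*-dapa mouse. Gaa, the acid glucosidase that degrades glycogen within lysosomes, was at 111, 124 and 118 CPM in *db/m*, 124, 128 and 149 CPM in *db/db*, and 154, 156 and 149 CPM in *db/db*-dapa mice. Its log2 fold change between treated *db/db* and *db/m* mice was 0.38 (standard error 0.15, adjusted p = 0.237 from edgeR), and it did not pass the test. Phkg2, the catalytic subunit of phosphorylase kinase in liver, had the opposite direction, at a log2 fold change of -0.48 (standard error 0.21, adjusted p = 0.258 from edgeR) between the same groups. That value was -0.30 without *db/m* replicate 3, the mouse with the most Phkg2 (45.5 CPM). Phkg1, its muscle form, was under 2.3 CPM in all mice and at 0 in *db/db* replicate 1.

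A gene for a partner of Stbd1 in autophagy was read next. Gabarapl1, an ATG8-family protein to which Stbd1 binds, was at 832, 913 and 824 CPM in *db/m*, 859, 836 and 668 CPM in *db/db*, and 722, 726 and 707 CPM in *db/db*-dapa mice. All *db/db*-dapa mice lay below the *db/m* mice, and *db/db* mice overlapped with both groups. The log2 fold change between treated *db/db* and *db/m* mice was -0.25 (standard error 0.16, adjusted p = 0.405 from edgeR) and did not pass the test. Sqstm1, the autophagy receptor p62, was lower in each *db/db* mouse (595, 799 and 582 CPM) than in any *db/m* mouse (853, 934 and 807 CPM), and so was each *db/db*-dapa mouse (722, 749 and 792 CPM). In *db/db* relative to *db/m* mice it was at a log2 fold change of -0.39 (standard error 0.18, adjusted p = 0.353 from edgeR). Laforin, encoded by Epm2a, and malin, encoded by Nhlrc1, act together in glycogen quality control. Epm2a was at most 4.67 CPM in the 9 mice and Nhlrc1 at most 7.85 CPM, and neither was called.

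The other lists showed 0 calls as well. Of the 8 tested genes of phosphatase targeting and kinase control, 0 had an unadjusted p under 0.05 in any comparison. Gsk3b, a kinase that inactivates glycogen synthase, was among them and lay between 33.1 and 63.5 CPM. Of the 8 tested genes of glucose 6-phosphate handling, 7 had values below 0 in *db/db*-dapa relative to *db/m* mice, and G6pc was the exception. The median of the 8 was -0.49 on the log2 scale. The lowest values were those of Hk3 (-2.14), Hkdc1 (-1.68) and Hk2 (-0.97), genes with at most 3.11 CPM in any mouse. The more abundant Gpi1, Slc37a4 and G6pc3 were at -0.17, -0.08 and -0.07. Hk1, a hexokinase found along much of the later nephron, was highest in *db/m* replicate 3 at 62.6 CPM, the mouse with the highest sums of later nephron markers, and the part of those cells in its level was not tested. Of the 6 AMPK subunits that were listed, 5 had values above 0 in *db/db*-dapa relative to *db/m* mice, with a median of 0.34.

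The genes whose levels were most like that of Stbd1 over the 9 mice, by Pearson's r of log2(CPM + 1) among 15582 genes, were Golt1b (r = 0.95), Ccdc169 (r = 0.95), Ormdl1, Igsf5 and Triap1 (r = 0.94 each). Ccdc169 was at most 0.560 CPM on average in any group. Golt1b, for example, was at 15.9 ± 2.64 CPM in *db/m*, 9.94 ± 1.5 in untreated and 13.4 ± 0.838 in treated *db/db* mice (each SD, n = 3). In the opposite direction were 1700123M08Rik (r = -0.98, at most 0.331 CPM on average in any group), Hook2 (r = -0.96), and Rbm3, Lilra5 and Rrp1b (r = -0.93 each). In all, 153 genes had an r over 0.8. Among the glycogen genes, Ugp2 had the highest r with Stbd1, at 0.71, followed by Phkg1 at 0.65 and Gyg at 0.64, and for Gys1 it was -0.27. Within the members, the highest r was that of Pygl with Pygb, at 0.79. These values share the same 9 libraries and the same 3 groups and are a description, and of the 5 genes most like Stbd1, 0 to 4 remained among the first 5 when 1 mouse was left out.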

How the data were processed

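Poly(A) RNA of sorted proximal tubular cells from 9 mice (3 for each group) was analysed, with groups and replicate numbers taken from the sample labels. The authors prepared stranded libraries and sequenced 101-base single-end reads. The submitters' processing notes name TopHat2 2.0.13, Bowtie2 2.2.3, SAMtools 0.1.19, Cufflinks 2.2.1 and the build mm10. The table deposited by the authors is named as FPKM, but it holds estimated counts (90.9% of the values are whole numbers, and column sums differ). How these were made and whether counting used strand is not given in the sources used here. The sums were 4817721 to 6571572 in *db/m*, 2733349 to 7635669 in *db/db* and 6981225 to 9033123 in *db/db*-dapa mice. Of 24421 rows, 6100 were at 0 in all mice, 0 had no name, and 0 columns of samples were left unused.

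The members and gene lists were chosen with earlier results of these data known. Values were rounded to whole numbers and filtered at 0.3 CPM of the unscaled library total in at least 2 mice. They were then scaled by TMM over whole-library totals and fitted over all 9 mice by edgeR 4.0.16 in R 4.3.3 (quasi-likelihood test). Benjamini-Hochberg adjustment was over 15583 genes. limma 3.58.1, with a pseudocount of 1, and DESeq2 1.42.0 were alternatives, as were other scalings and filters, a fit of 2 groups, the replicate number as a block, and leaving out each mouse. The scripts were tested on simulated data. CPM are counts relative to scaled library sizes. Genes named were the members, genes called on the 7 lists, the highest and lowest of each list in each comparison, 8 glycogen genes whatever their values, the 5 genes most and least like Stbd1, and defining markers. Some extremes of a list are given only in its counts, some genes and 1 list are not reported here, and Sqstm1, Phkg2, Hk1 and Ruvbl2 were named after their values were seen. Same-numbered mice did not deviate together throughout (3 of 9 pairs had r over 0.1, from -0.32 to 0.56), and the numbers were not taken as pairs. The highest r over all pairs of mice were between same-numbered untreated and treated *db/db* mice, 0.56 for replicate 3 and 0.40 for replicate 1. For replicate 2 of these groups r was -0.16. Whether such mice were handled together was not tested. Gene coordinates and transcript lengths are GENCODE's for GRCm38, and promoter windows are RefSeq's for GRCm38.p6.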

Additional observations from a re-analysis of the deposited data

How the results depend on the processing

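The members' fold changes rest on 3 mice for each group, and those of Stbd1 on 15 to 44 counts in each *db/db* mouse. With a mouse left out, 8 member fold changes moved by more than the spread between replicates and 235 did not. Under other settings, 2 did and 319 did not. The counts with a mouse left out include values that leave out a mouse of the group not compared, which can hardly move. All of these counts also include Ppp1r3b and Ppp1r3c, for which no fold change is given because of their low counts. The 235 is therefore not read as a measure of stability. Calls between *db/db* and *db/m* mice over all genes were 194. They were 363 with DESeq2, 318 with limma when mice were weighted, 115 in a fit of only these 2 groups, and 84 to 230 with 1 mouse left out. Of the 194, 85 were higher and 109 lower, against 141 higher and 93 lower when library totals alone set the scale, which moved the median log2 fold change of all genes from 0.02 to 0.13. Between treated *db/db* and *db/m* mice 164 genes were called, against 275 with no filter on low values, 507 with DESeq2, 929 with limma when mice were weighted, 630 in a fit of only these 2 groups and 14 to 662 with 1 mouse left out. Between treated and untreated *db/db* mice 0 genes were called, against 13 with DESeq2, 445 with limma when mice were weighted and 0 to 272 with 1 mouse left out, the 272 without *db/db* replicate 3. The cause of these differences was not tested.

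Of the 46 other genes, 0 were called between treated *db/db* and *db/m* mice, against 1 (G6pc) with no filter, with DESeq2, with limma when mice were weighted and in a fit of only these 2 groups, and 0 to 1 with 1 mouse left out. Of the 9 members, 0 to 1 were called between *db/db* and *db/m* mice with 1 mouse left out. Between treated and untreated *db/db* mice 1 (Stbd1) was called with DESeq2 and with limma when mice were weighted. With 1 mouse left out, 0 to 2 were called (Stbd1 and Gbe1, without *db/db* replicate 3). Over all genes, 13 of 15583 were called with DESeq2 and 445 of 15583 with limma when mice were weighted. Without *db/db* replicate 3 it was 272 of 15519. Of the 5 genes most like Stbd1, 1 was also among the first 5 by Spearman's rho, and 0 to 4 were with 1 mouse left out. With the replicate block, 185, 167 and 0 genes were called in the 3 comparisons, and the block changed no call of a member or of another glycogen gene. Of the 9 mice, 4 correlated best with a mouse of their own number.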
